A study of Mus musculus with 21 samples.

Results

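Skeletal muscle holds a mesenchymal cell called the fibro-adipogenic progenitor (FAP), which expresses the receptor Pdgfra. FAPs divide after injury, supply matrix and secreted factors to regenerating fibres, and can become fat cells or fibroblasts. The RNA of cultured mouse FAPs labelled Prdm16 was compared across all genes with that of FAPs labelled WT. The members were taken from the columns of the raw count table by their headers, which name 5 of the 21 samples of the series: 2 libraries of Prdm16 and 3 of WT. The Prdm16 genotype was Prdm16Flox/Flox::PdgfrαCre-ERT/+, in which a tamoxifen-dependent Cre is made where Pdgfra is active. The WT genotype was Prdm16Flox/Flox::Pdgfrα+/+, so the controls carried the same floxed alleles and no Cre. Adult mice of both genotypes were given tamoxifen on 5 days. Cardiotoxin, a venom peptide that destroys muscle fibres, was injected 7 days afterwards. FAPs were sorted 5 days after the injury and grown for 4 to 5 days on coated dishes before RNA was taken and libraries were made by SMART-seq2. All values therefore describe expanded cells in culture. The labels give neither the age in weeks nor whether replicates came from separate or pooled animals, so p-values measure the spread between these libraries, which may be technical.

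Prdm16 is a zinc-finger regulator of transcription of the PR-domain family. It is known in mice for directing cells of the brown fat lineage away from muscle, and for partners that act on H3K9 methylation. The RNA comparison asks which genes differ in FAPs whose floxed Prdm16 alleles were exposed to Cre.

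Library totals were 5839587 to 8448654 counts in Prdm16 and 7053114 to 10657791 counts in WT. Of 55341 listed genes, 32193 had a count and 15240 passed the filter on low counts. Some facts went against the labels. The authors' deposited table of p-values was met within 1% for 179 of 15240 genes (1.17%) when DESeq2 was run with the groups as labelled, and for 15240 (100%) with WT replicate 3 and Prdm16 replicate 2, as labelled, taken for the Prdm16 pair. The labels of Prdm16 replicate 1 and WT replicate 3 are thus in doubt, and results are also given without both. Xist, which silences the inactive X, had 4116 and 15 counts in Prdm16 replicates 1 and 2, against 3483, 3670 and 4652 counts in the WT replicates. The Y genes Ddx3y, Eif2s3y, Kdm5d and Uty had 372, 436, 181 and 333 counts in Prdm16 replicate 2 and at most 2 counts in any other library. The Prdm16 libraries therefore differ from each other in these sex-linked RNAs, with replicate 1 like the WT libraries, and sex and genotype cannot be told apart for differences that rest on Prdm16 replicate 2. Directions below follow the labels.

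Prdm16 itself (chromosome 4, 154316122 to 154637360, GRCm38) had 91 and 86 counts in the libraries labelled Prdm16, against 171, 94 and 59 counts in WT. These were 10.6 and 15.3 CPM (counts scaled to the same library size, in the usual per-1e6 unit) in Prdm16, against 16.4, 13.5 and 5.51 CPM in WT. Both Prdm16 libraries lay inside the WT range. Its log2 fold change (Prdm16 over WT, as throughout) was 0.13, SE 0.47, with a 95% interval between -0.96 and 1.22. The adjusted p was 0.9996, from a two-sided quasi-likelihood test in edgeR with Benjamini-Hochberg adjustment over all genes. The value was -0.21 when WT replicate 3 was left out and -0.14 when Prdm16 replicate 2 was. A gene count includes reads outside the floxed part and so cannot test the deletion. Markers of other cells were mostly under the filter for blood and vessels and abundant for muscle. The 16 macrophage and monocyte markers, of which 4 passed the filter, summed to 25.8 and 34.8 CPM in Prdm16, against 26.7, 21.6 and 22.2 CPM in WT, mostly from Cd14, and Ptprc, the common leukocyte antigen, had at most 3 counts in any library. The 14 endothelial markers, of which 6 passed, summed to 30.2 and 22.7 CPM in Prdm16, against 36.0, 32.1 and 22.4 CPM in WT, mostly from Egfl7, with Pecam1 at 4 counts or fewer. Of these 6, 2 were higher and 4 lower in Prdm16, with a median log2 fold change of -0.36. Cdh5, the cadherin of vessel walls, had 5.49 and 4.26 CPM in Prdm16, against 1.35, 1.58 and 2.80 CPM in WT. Emcn, another of the 6, went the other way, with 0.584 and 0.533 CPM in Prdm16, against 1.83, 3.44 and 0.840 CPM in WT. Neither overlapped. Pdgfra had 761 and 587 CPM in Prdm16, against 822, 950 and 471 CPM in WT, so the sorted cell type's defining receptor was present in every library.

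Distances between libraries of one label lay inside the range of distances between libraries of different labels. The distance between a pair was taken as the median over 15240 genes of the absolute difference in log2 CPM. The Prdm16 pair lay 0.279 apart. The 3 WT pairs lay 0.382, 0.419 and 0.397 apart, a mean of 0.399 ± 0.018 (SD, n = 3 pairs that share libraries). The 6 pairs of a Prdm16 with a WT library covered the whole range and more. Prdm16 replicate 1 with WT replicate 2, at 0.272, was the closest of all 10 pairs. Prdm16 replicate 2 with WT replicate 1, at 0.444, was the farthest. The share of genes that differed by more than 1 log2 unit followed nearly the same order. It was 9.27% in the Prdm16 pair, 15.6% to 19.1% in the WT pairs and 7.04% to 20.1% between the groups.

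**Figure D1:**
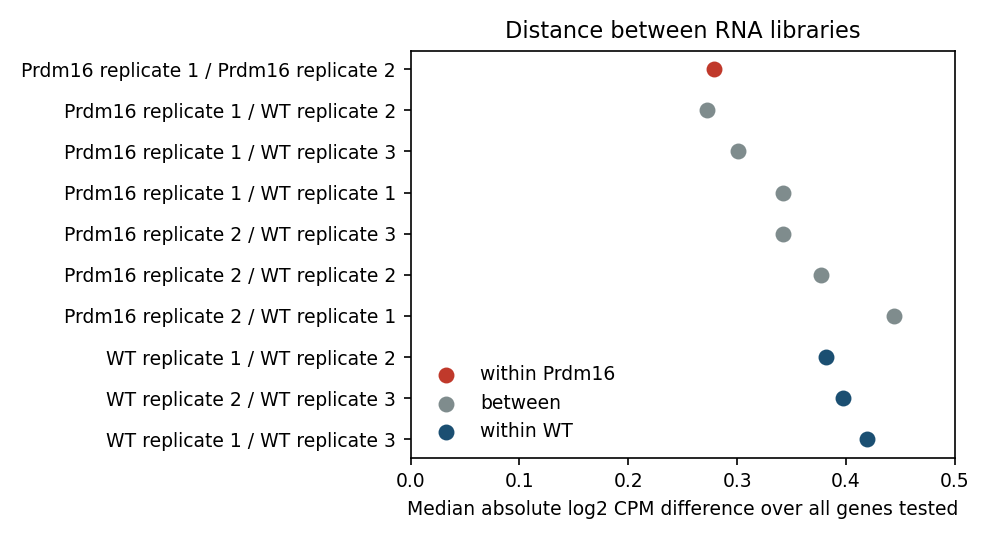
Each point is 1 of the 10 pairs of RNA libraries, placed by the median absolute difference in log2 CPM over 15240 genes, with the Prdm16 pair on top, the pairs between genotypes in the middle and the WT pairs at the bottom. The pairs between genotypes run from 0.272 to 0.444 and enclose both the Prdm16 pair at 0.279 and the WT pairs at 0.382 to 0.419.

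The spread inside a group depended on the kind of gene. Among the 7742 genes that averaged 20 CPM or more, the median range over the WT libraries was 0.5 log2 units and the median difference within the Prdm16 pair was 0.2. A pair has a smaller range than a trio, so these values are not a comparison of the groups. The WT range passed 1 log2 unit in 1227 of these genes and the Prdm16 difference in 236. In the 1227, WT replicate 3 was the library farthest from the WT median for 574 genes, WT replicate 1 for 340 and WT replicate 2 for 313. Genes induced by interferon, the antiviral cytokine, were the most divided within both labels. Over 36 of them the median range was 4.03 log2 units in WT and the median difference was 3.33 in Prdm16. Ifit3 had 556 and 22.2 CPM in Prdm16, against 490, 767 and 20.9 CPM in WT. Prdm16 replicate 2 and WT replicate 3 were thus low, and the other 3 libraries high. Isg15, a ubiquitin-like protein, had 329 and 10.1 CPM in Prdm16, against 435, 369 and 20.7 CPM in WT, with the same 2 libraries low.

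Other genes divided the libraries in other ways. Imprinted growth genes had a median WT range of 1.63 log2 units and a median Prdm16 difference of 0.22. Peg3, a paternally expressed zinc-finger gene, had 63.0 and 58.6 CPM in Prdm16, against 53.9, 139 and 79.1 CPM in WT, with WT replicate 2 the highest. Adamts15, a secreted matrix protease, had the largest WT range of all genes at this level. It had 24.2 and 9.24 CPM in Prdm16, against 26.6, 41.4 and 0.28 CPM in WT, the last from 3 counts. Glycolysis and hypoxia genes differed more within Prdm16, by a median of 1.16 log2 units, with a WT range of 0.95. Ndufa4l2, a mitochondrial protein induced by low oxygen, had 7.00 and 122 CPM in Prdm16, against 18.3, 45.9 and 24.8 CPM in WT. Ldha, the lactate-forming dehydrogenase, had 987 and 2897 CPM in Prdm16, against 1116, 1701 and 2534 CPM in WT. The 2 Prdm16 libraries enclosed all 3 WT libraries for both genes. Cytosolic ribosomal protein genes had the smallest median WT range of the lists, at 0.23 log2 units, and the same value as their median Prdm16 difference, where all genes at this level had 0.2.

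Among named genes, matrix genes and genes that most cells use took the most counts. The largest single share went to an unnamed locus, with 1.48% and 2.57% in Prdm16, against 0.824%, 1.81% and 1.07% in WT. A count share depends on transcript length, so the shares describe the libraries and do not rank genes by level. Together the 25 leading named genes took 8.81% and 10.8% of counts in Prdm16, against 7.53%, 9.35% and 7.56% in WT. They held matrix genes (Spp1, Fn1, Sparc, Bgn, Col1a2, Nid1, Mgp), cytoskeletal genes (Actb, Vim, Tubb5) and the iron store Fth1 and Ftl1. Glycolytic enzymes (Pkm, Aldoa, Ldha) and 2 mitochondrial transcripts were also among them. The mitochondrial mt-Rnr2 had the largest mean share of the 25, at 1.039%. Of the 25, 3 lay above all WT libraries in both Prdm16 libraries (Spp1, Ctsl and Eef2), 3 lay below (Sparc, Tubb5 and Lgals1) and 19 overlapped, where 8.83% of all genes tested lay above and 8.96% below. Spp1, the secreted phosphoprotein osteopontin, took 1.12% and 1.44% of counts in Prdm16, against 0.771%, 0.796% and 0.586% in WT, and the groups did not overlap. Its log2 fold change was 0.86, SE 0.25 (edgeR adjusted p = 0.9996). Fn1, the fibronectin of provisional matrix, took 0.797% and 1.11% in Prdm16, against 0.683%, 0.783% and 0.466% in WT. Its levels overlapped between the genotypes once libraries were scaled. Hsp90ab1, a cytosolic chaperone, was the most even, at 0.214% in both Prdm16 libraries, against 0.214%, 0.212% and 0.213% in WT.

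Across all genes the genotypes as labelled were not told apart by the test. An adjusted p under 0.05 was reached by 0 of 15240 genes (0%) with edgeR, whose smallest adjusted p was 0.085. An unadjusted p under 0.05 was reached by 378 genes (2.48%), of which 169 (1.11%) had higher and 209 (1.37%) lower values in Prdm16. DESeq2's Wald test called 2 genes at an adjusted p under 0.05, and limma-voom called 0 with 327 at an unadjusted p under 0.05. Both Prdm16 libraries lay above all WT libraries in 1345 genes (8.83%) and below them in 1365 (8.96%). Without WT replicate 3 and Prdm16 replicate 1, edgeR called 93 genes, 14 higher and 79 lower. That fit sets 1 Prdm16 library against 2 WT libraries and assumes that the lone library varies like the others. The 93 held Xist, 4 Y genes and many interferon-induced genes such as Ifit3, Isg15 and Irf7.

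Precision rose with level. The median SE of the log2 fold change was 0.62 for genes of 1 to 5 CPM, 0.38 for 5 to 20 CPM, 0.25 for 20 to 100 CPM and 0.21 above 100 CPM. The median absolute log2 fold change was 0.40, 0.25, 0.18 and 0.17 in the bins up to 500 CPM, so the typical difference was smaller than its own error at every level. The biological coefficient of variation, the relative spread between libraries of a group beyond counting error, was 0.318.

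Ndufs5, an accessory subunit of respiratory complex I, stood nearest to a call. It lies on chromosome 4 (123712710 to 123718186) and had 47 and 30 counts in Prdm16, against 450, 251 and 382 counts in WT. These were 5.49 and 5.33 CPM in Prdm16, against 43.3, 36.0 and 35.6 CPM in WT, so both Prdm16 libraries were low, all WT libraries were high, and neither group spread widely. Its log2 fold change was -2.82, SE 0.27, with a 95% interval between -3.43 and -2.21 (edgeR adjusted p = 0.085, with 5.43e-15 to 1.00 over the alternatives). It passed 0.05 with DESeq2, with upper-quartile scaling, without the filter on low counts, and without WT replicate 3 and Prdm16 replicate 1. The annotation lists a pseudogene of Ndufs5, and the counting of reads from near-identical copies is not stated in these sources.

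The 250 bases before the annotated starts of 3 genes are shown: Ndufs5 because it stood nearest to a call, and Atp5k, a small subunit of ATP synthase with lower values, and Casq1, a muscle calcium store with higher values, because each holds a motif more frequent in its group than in all genes. They are RefSeq sequences of GRCm38.p6, 5′ to 3′ on the gene's strand, and capitals mark motif matches. They span chr4:123718187-123718436, chr5:108434400-108434649 and chr1:172219896-172220145, all on the minus strand.
Ndufs5: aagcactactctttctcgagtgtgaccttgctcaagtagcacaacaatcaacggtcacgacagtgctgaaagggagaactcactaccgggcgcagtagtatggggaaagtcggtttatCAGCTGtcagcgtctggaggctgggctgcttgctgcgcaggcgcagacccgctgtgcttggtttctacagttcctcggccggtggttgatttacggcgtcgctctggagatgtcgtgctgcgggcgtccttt
Atp5k: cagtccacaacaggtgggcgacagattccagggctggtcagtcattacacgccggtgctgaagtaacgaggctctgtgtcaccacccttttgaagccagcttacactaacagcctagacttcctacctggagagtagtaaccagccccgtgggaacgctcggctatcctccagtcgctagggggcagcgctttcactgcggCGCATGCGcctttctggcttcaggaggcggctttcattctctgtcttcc
Casq1: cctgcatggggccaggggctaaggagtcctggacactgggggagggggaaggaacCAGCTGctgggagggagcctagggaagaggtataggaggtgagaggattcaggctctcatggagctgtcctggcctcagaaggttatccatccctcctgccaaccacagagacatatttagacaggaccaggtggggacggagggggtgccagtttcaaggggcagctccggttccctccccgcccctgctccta
Searched on both strands, from 250 bases before to 50 after the start, were CAGCTG (an E-box, the element that muscle factors of the MyoD family bind), TATAAA (known as the TATA box), GCATGCG (the core of the NRF1 site), AAGATGGC (a YY1 element) and CCGGAAG (an ETS core). The capitals of Atp5k are GCATGCG read on both strands, overlapping by all but 1 base. Nuclear respiratory chain genes held the NRF1 core in 17.5% of 63 windows, against 7.22% of the 10388 windows of all genes tested, and the YY1 element in 14.3%, against 5.19%. Sarcomere genes, a list that includes the calcium stores Casq1 and Casq2, held CAGCTG in 48.3% of 29 windows, against 18.2% of all. They held TATAAA in 27.6%, against 9.22%. The match in Ndufs5 is CAGCTG, which the respiratory genes held in 7.94% of windows. A match describes the letters in a window and shows no binding.

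Genes of the protein-making and energy-making machinery had lower values in Prdm16, family by family. Cytosolic ribosomal proteins, the structural proteins of the ribosome, were lower in 78 of 78 genes, and 73 lay below all WT libraries in both Prdm16 libraries (93.6%, where the background was 8.96%). An unadjusted p under 0.05 was reached by 37 of the 78 and an adjusted p under 0.05 by 0, with edgeR. The median log2 fold change was -0.42 and the range -1.15 to -0.01, where the median of all genes tested was 0. Nuclear-encoded genes of the respiratory chain, which oxidises fuel and makes ATP in mitochondria, were lower in 69 of 75, with 57 below all WT libraries (76%), 24 at an unadjusted p under 0.05, 0 called and a median of -0.40. The first list was added after values had been seen, and the second was chosen with earlier results known, so neither is independent evidence. Without WT replicate 3 and Prdm16 replicate 1, 75 of the 78 and 68 of the 75 lay below, where 5217 of all genes did. With fewer libraries, more of all genes lie without overlap. The counts in the other alternatives were 72 to 74 of the ribosomal list and 53 to 66 of the respiratory list. Over those alternatives, 922 to 3838 of all genes lay below.

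Single ribosomal proteins showed a small and even shift. Rpl37a, of the large subunit, had 223 and 199 CPM in Prdm16, against 365, 303 and 281 CPM in WT (log2 fold change -0.58, SE 0.19). Rpl39, which lines the exit tunnel of the large subunit, had 146 and 124 CPM in Prdm16, against 218, 193 and 189 CPM in WT (log2 fold change -0.56, SE 0.18). Rps14, of the small subunit, had 589 and 509 CPM in Prdm16, against 782, 782 and 690 CPM in WT (log2 fold change -0.45, SE 0.18). In all 3 genes Prdm16 replicate 2 was the lowest library, as it was for 74 of the 78. Genes named Rpl had a median of -0.41 over 46 and genes named Rps one of -0.42 over 30. Those that overlapped included Rps2, Rpl4, Rpl13a and Rpl23a. Rps2 had 130 and 129 CPM in Prdm16, against 510, 118 and 233 CPM in WT, so its log2 fold change of -1.15 rested on WT replicates 1 and 3. Ribosomal protein genes have many processed copies in the genome, so single values are uncertain.

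**Figure D2:**
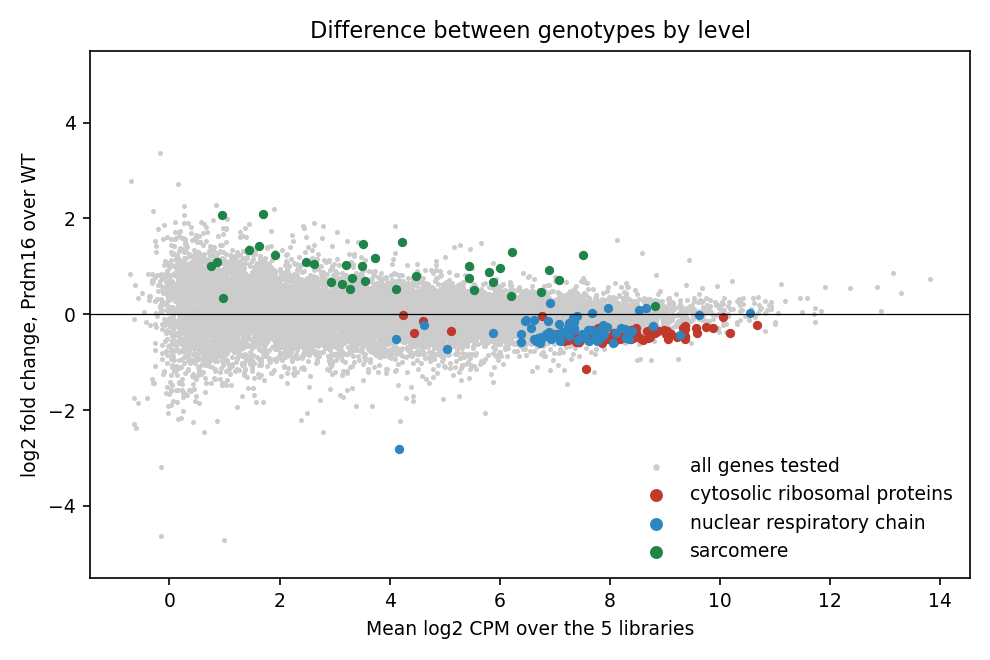
Each grey point is 1 of 15240 genes, with the mean log2 CPM over the 5 libraries on the x axis and the log2 fold change (Prdm16 over WT) on the y axis, and 3 gene lists are coloured. The ribosomal (red) and respiratory (blue) genes form a band just below 0 at high levels, with Ndufs5 apart at -2.82, and the sarcomere genes (green) lie above 0 at mostly lower levels.

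The lower values ran through the complexes of the respiratory chain, with a few core subunits outside them. Genes named Nduf, mostly of complex I, were lower in 35 of 37 with a median of -0.41. Genes named Cox, mostly of complex IV, were lower in 11 of 11 with a median of -0.43. Genes named Atp5, of ATP synthase, were lower in 13 of 14 with a median of -0.32. Cox7a2, a small subunit of complex IV, had 166 and 146 CPM in Prdm16, against 256, 212 and 222 CPM in WT (log2 fold change -0.56, SE 0.18). Uqcr10, a small subunit of complex III, had 88.9 and 77.4 CPM in Prdm16, against 144, 114 and 118 CPM in WT (log2 fold change -0.60, SE 0.20). Atp5k had 70.6 and 60.2 CPM in Prdm16, against 113, 89.9 and 91.4 CPM in WT (log2 fold change -0.58, SE 0.21). None of the 3 overlapped. The genes with positive values included Ndufs1, a core subunit of complex I, Sdha, the flavoprotein of complex II, Uqcrc1 and Uqcrc2, core proteins of complex III, and Atp5b, the catalytic subunit of ATP synthase. Atp5b had 1469 and 1568 CPM in Prdm16, against 1398, 1479 and 1602 CPM in WT. These genes overlapped between the genotypes. Of the transcripts of the mitochondrial genome, 5 of 10 were higher and 5 lower, with a median of 0.02 whose sign changed under 5 alternatives.

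Other compact housekeeping families had the same direction. Mitochondrial ribosomal proteins were lower in 70 of 77 with 32 below all WT libraries (41.6%, where the background was 8.96%) and a median of -0.25. The proteasome core, which degrades proteins, was lower in 16 of 17 with 6 below (35.3%) and a median of -0.24. Sm and LSm proteins, which bind spliceosomal RNA, were lower in 22 of 22 with 11 below (50%) and a median of -0.38. These 3 families were added after values had been seen. No member of the 3 was called by edgeR. The medians of all 5 families kept their sign under every alternative that was run. The alternatives reuse the same libraries, so the kept sign is no further evidence.

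**Figure D3:**
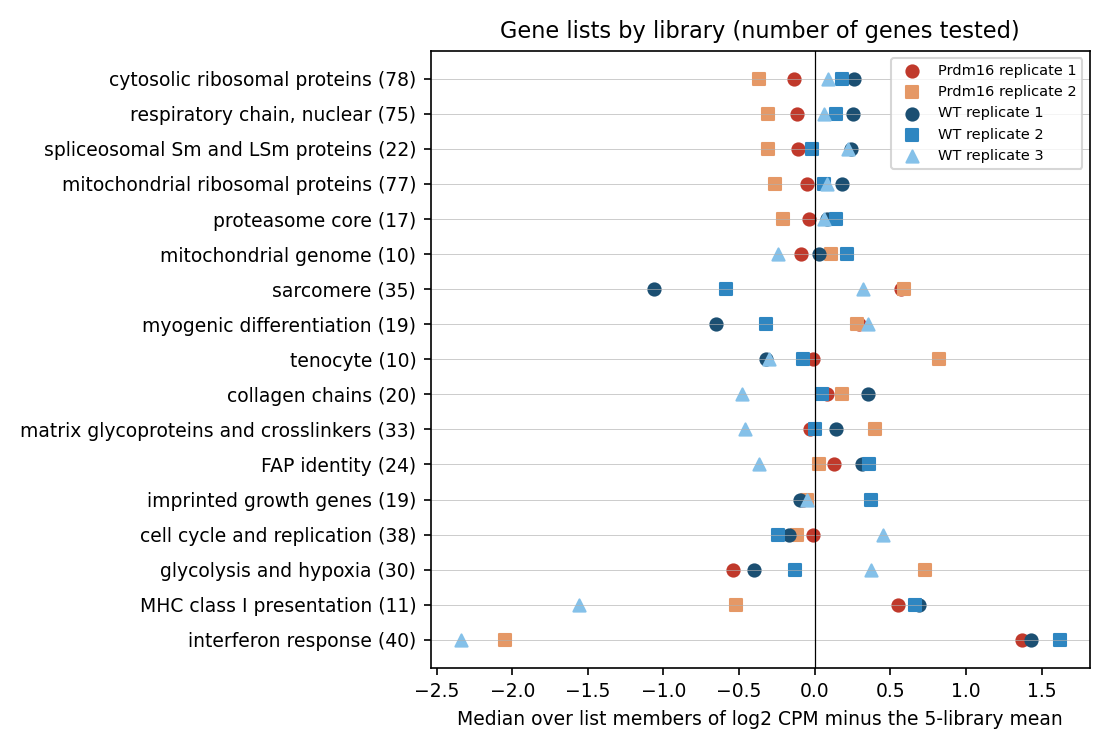
Each point is the median over the tested genes of a list of log2 CPM minus the mean of the 5 libraries (x axis), for each library, with the number of genes tested in brackets. In the top 5 lists both Prdm16 libraries lie left of all WT libraries, in the sarcomere list they lie right, and in the interferon list Prdm16 replicate 2 and WT replicate 3 lie apart from the other 3 libraries.

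The length of a gene on the chromosome moved with these differences. Among 10541 protein-coding genes that averaged 5 CPM or more, the Spearman correlation across genes of genomic span with log2 fold change was 0.24, a description over genes that share 5 libraries. With the ribosomal and respiratory genes left out, the median log2 fold change was -0.23 for spans up to 2 kb, -0.17 for 2 to 5 kb, -0.07 for 5 to 10 kb, -0.01 for 20 to 50 kb and 0.05 above 100 kb. The share of these genes below all WT libraries was 27% up to 2 kb, 17.1% from 2 to 5 kb and 4.96% above 100 kb. The median span was 3.15 kb for ribosomal protein genes and 7.28 kb for the respiratory genes. Short genes were relatively high in WT replicate 1, with a median deviation of 0.23 log2 units up to 2 kb, and relatively low in Prdm16 replicate 2, with -0.20. The median deviations in Prdm16 replicate 1 and in WT replicates 2 and 3 were -0.09, 0.10 and -0.05. Within the respiratory list the same correlation was 0.45 over 75 genes, and within the ribosomal list it was 0.20 over 78. The part of span, or of RNA quality, in the lower values of these families was not tested.

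**Figure D4:**
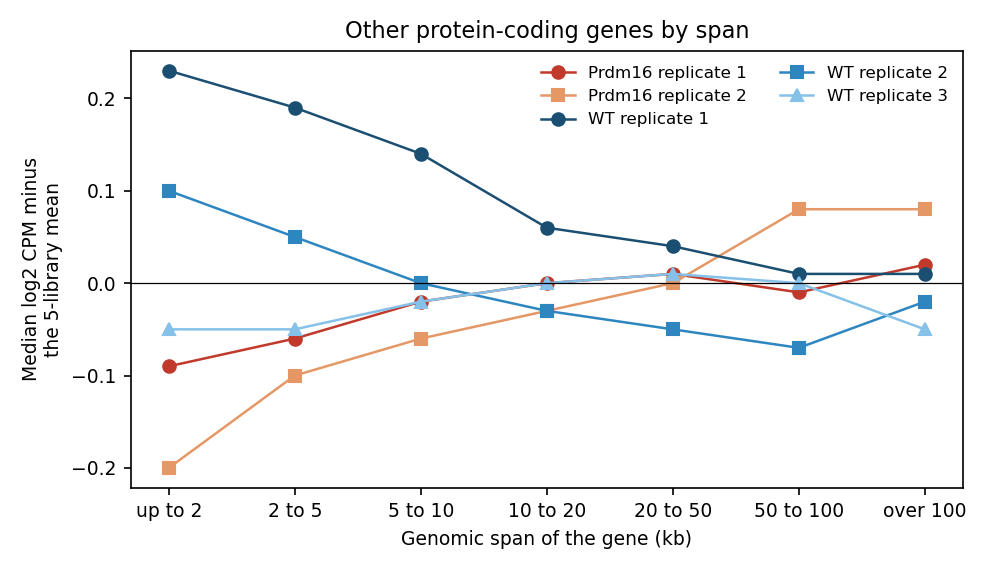
Protein-coding genes that averaged 5 CPM or more, without the ribosomal and respiratory genes, are binned by genomic span in kb (x axis), and each line gives the median of log2 CPM minus the mean of the 5 libraries for 1 library (y axis). For genes up to 2 kb the libraries run between -0.20 in Prdm16 replicate 2 and 0.23 in WT replicate 1, and the lines come together from 10 to 50 kb.

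Genes of the sarcomere list had higher values in Prdm16. The list holds contractile proteins of muscle fibres and also the calcium stores Casq1 and Casq2, which are not contractile. All 35 tested of 40 listed were higher, with a median log2 fold change of 0.96 and a range of 0.18 to 2.09, the last in Casq1. Without the filter on low counts, 36 were higher and 3 lower. Of the 35, 18 lay above all WT libraries (51.4%, where the background was 8.83%), 14 reached an unadjusted p under 0.05, and edgeR called 0. Without WT replicate 3, 34 lay above, where 2816 of all genes did in that setting. Casq2, which stores calcium in the sarcoplasmic reticulum, had 35.6 and 34.5 CPM in Prdm16, against 8.27, 13.6 and 14.9 CPM in WT (log2 fold change 1.51, SE 0.30). Myh3, the embryonic myosin heavy chain, had 156 and 114 CPM in Prdm16, against 34.3, 45.0 and 85.3 CPM in WT (log2 fold change 1.30, SE 0.38). Neither gene overlapped. Mylpf, the regulatory light chain of fast myosin, had 157 and 113 CPM in Prdm16, against 59.4, 95.7 and 139 CPM in WT, so WT replicate 3 lay between the Prdm16 libraries. WT replicate 3 was the highest WT library for 33 of the 35 genes and WT replicate 1 the lowest library of all 5 for 28.

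Other markers of muscle cells were divided between the libraries. In bulk RNA, more muscle cells and more muscle RNA per cell cannot be told apart. Myog, a factor of muscle differentiation, had 120 and 87.2 CPM in Prdm16, against 31.7, 54.9 and 130 CPM in WT. Myod1, which commits cells to muscle, had 12.6 and 16.0 CPM in Prdm16, against 5.10, 8.60 and 29.4 CPM in WT. Both overlapped, with WT replicate 3 the highest. The 14 satellite cell and myoblast markers summed to 824 and 933 CPM in Prdm16, against 743, 844 and 1078 CPM in WT, with 6 of the 11 tested higher, 5 lower and a median of 0.22 whose sign changed under 3 alternatives. The 20 differentiation genes summed to 572 and 557 CPM in Prdm16, against 350, 404 and 631 CPM in WT, with 15 of the 19 tested higher, 4 lower and a median of 0.44, which ran between 0.15 (without WT replicate 1) and 0.95 (without WT replicate 3 and Prdm16 replicate 1) over the alternatives. Of the defining markers of satellite cells, Pax7 had 1 and 1 counts in Prdm16, against 0, 0 and 11 counts in WT. The part of muscle cells in the sarcomere values was not tested.

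The 15 genes of smallest p with higher values had log2 fold changes of 0.61 to 2.09, and both Prdm16 libraries lay above all WT libraries in each. Their edgeR adjusted p was 0.9996 throughout. They were Thbs4, Casq2, Pmaip1, Dusp6, Stom, Casq1, Csgalnact1, Slc39a14, Cd80, Chic1, Spp1, Bex1, Lrp8, Myh3 and Slc5a3. Thbs4, a thrombospondin of the matrix around tendon and muscle, had 66.2 and 125 CPM in Prdm16, against 37.1, 35.1 and 29.9 CPM in WT (log2 fold change 1.49, SE 0.29). Pmaip1, a BH3-only promoter of apoptosis, had 110 and 137 CPM in Prdm16, against 71.0, 73.0 and 58.7 CPM in WT, and Dusp6, a phosphatase that restrains ERK, had 231 and 260 CPM, against 153, 144 and 161 CPM. Their log2 fold changes were 0.87 (SE 0.20) and 0.68 (SE 0.17). Slc39a14, a transporter of zinc and iron, had 90.3 and 101 CPM in Prdm16, against 59.0, 62.9 and 59.0 CPM in WT. Slc5a3, which imports myo-inositol, had 748 and 970 CPM in Prdm16, against 531, 580 and 576 CPM in WT. The WT libraries lay close together in both genes, and the larger gap was to Prdm16 replicate 2. Casq1, the calcium store of fast fibres, had 4.55 and 10.5 CPM in Prdm16, against 1.06, 1.72 and 2.43 CPM in WT, the largest fold change of the 15 at 2.09 and the least precise, with an SE of 0.55. Pmaip1 belongs to the p53 targets, of which Mdm2, the ligase that limits p53, had 312 and 405 CPM in Prdm16, against 203, 214 and 271 CPM in WT. The list of 24 p53 targets and cell cycle inhibitors had 14 higher and 10 lower, with a median of 0.02.

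The 15 genes of smallest p with lower values had log2 fold changes of -2.82 to -0.56. Beside Ndufs5, Cox7a2, Uqcr10, Rpl39 and Rpl37a they were Sod1, Hist1h4d, Nhsl2, Cenpx, Ap4s1, Irak1bp1, Cavin3, Rp9, Marc2 and Smim8. Sod1, the cytosolic superoxide dismutase, had 293 and 224 CPM in Prdm16, against 622, 358 and 510 CPM in WT (log2 fold change -0.94, SE 0.27). Cavin3, a coat protein of caveolae, had 133 and 99.6 CPM in Prdm16, against 219, 169 and 167 CPM in WT (log2 fold change -0.67, SE 0.22). Cenpx, a small protein of the kinetochore and of DNA repair, had 52.99 and 46.89 CPM in Prdm16, against 79.0, 73.8 and 76.5 CPM in WT (log2 fold change -0.61, SE 0.20). Each group was tight in Cenpx. Irak1bp1 had 5.84 and 4.26 CPM in Prdm16, against 25.2, 10.2 and 9.80 CPM in WT, where WT replicate 1 stood far above the other WT libraries. Hist1h4d belongs to a histone family of near-identical copies, so its count is uncertain. All 30 of these genes kept their direction in each alternative that could fit them. They were picked by smallest p in the same libraries and none overlapped. Their kept direction was thus close to fixed by the choice and is no further evidence.

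**Figure D5:**
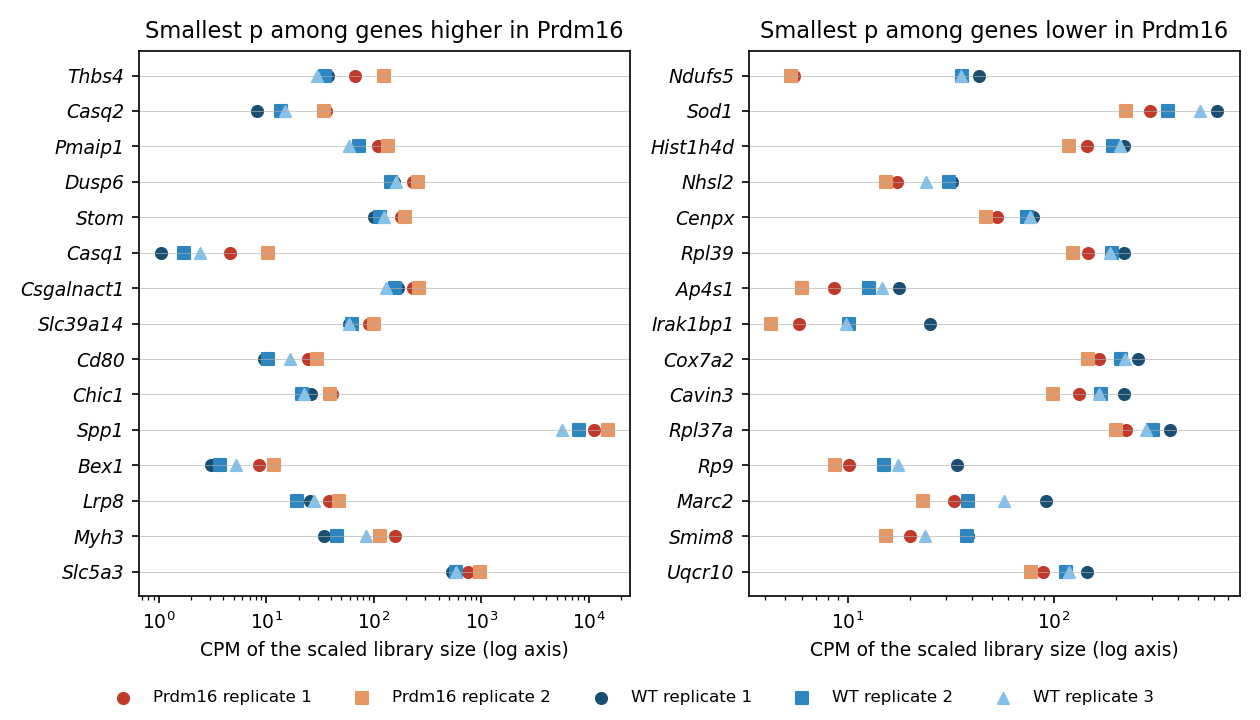
Each row is a gene and each symbol a library, placed by CPM of the scaled library size on a log axis, with the 15 genes of smallest p that were higher in Prdm16 on the left and the 15 that were lower on the right. The 2 Prdm16 symbols (red and orange) lie on one side of the 3 WT symbols (blue) in every row, and the widest gap is that of Ndufs5, with 5.33 and 5.49 CPM in Prdm16 and 35.6 to 43.3 CPM in WT.

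FAP identity genes did not move together between the genotypes. Of 24 tested, 9 were higher and 15 lower, the median log2 fold change was -0.13, and its sign changed without WT replicate 1 and without WT replicate 2. Unadjusted p was under 0.05 for 2 of them and edgeR called 0. Both Prdm16 libraries lay above all WT libraries in 5 of the 24 (20.8%, where the background was 8.83%). They lay below in 1, Osr1 (4.17%, where the background was 8.96%). Cd34, a surface glycoprotein of progenitors, had 413 and 448 CPM in Prdm16, against 279, 314 and 317 CPM in WT (log2 fold change 0.51, SE 0.17). Osr1, a transcription factor of limb connective tissue, had 36.4 and 32.1 CPM in Prdm16, against 56.2, 40.0 and 43.3 CPM in WT. Neither overlapped. Dcn, the small proteoglycan decorin, had 714 and 731 CPM in Prdm16, against 602, 487 and 129 CPM in WT. WT replicate 3 was far below the rest in Dcn, and it was the lowest library of all 5 for 14 of the 24 genes. Ly6a, the surface antigen Sca-1, had 1213 and 772 CPM in Prdm16, against 1366, 1703 and 760 CPM in WT. Prdm16 replicate 2 and WT replicate 3 were its low libraries.

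Matrix genes were divided, and their medians depended on single libraries. Of 33 matrix glycoproteins and crosslinkers, 27 were higher and 6 lower, with 6 above all WT libraries (18.2%, where the background was 8.83%) and 3 at an unadjusted p under 0.05 (1.11% of all genes were higher at this p). Their median log2 fold change of 0.23 turned to -0.11 without Prdm16 replicate 2, whose median deviation of 0.40 was the highest of the 5 libraries. Of 20 collagen chains, 11 were higher and 9 lower, and the median of 0.24 turned to a negative sign without WT replicate 3. Of 10 tenocyte genes, 6 were higher and 4 lower. Above all WT libraries lay 3 (30%, where the background was 8.83%), and below them 2 (20%, where it was 8.96%). An unadjusted p under 0.05 was reached by 5, all higher, where 1.11% of all genes were higher at this p. The median log2 fold change of the 10 was 0.82. That median was 0.20 without Prdm16 replicate 2, whose median deviation was 0.82 where that of Prdm16 replicate 1 was -0.01. Comp, a cartilage and tendon matrix protein, had 7.35 and 21.1 CPM in Prdm16, against 2.89, 8.03 and 3.27 CPM in WT. Fmod, the collagen-binding fibromodulin, had 1.98 and 9.24 CPM in Prdm16, against 2.02, 1.58 and 1.12 CPM in WT, so only Prdm16 replicate 2 was high. Scx, the transcription factor that defines tenocytes, had 0.934 and 0.710 CPM in Prdm16, against 2.79, 1.43 and 1.03 CPM in WT. No gene of these lists was called by edgeR. Adipogenic genes were divided, 10 higher and 9 lower, with a median of 0.02 whose sign changed under 6 alternatives. Pparg, the master regulator of fat cells, had 33.5 and 29.3 CPM in Prdm16, against 30.7, 46.6 and 18.6 CPM in WT.

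The authors' deposited table called 123 genes up and 348 down. It called 0 of the 30 genes named above by p, 0 of the 78 ribosomal and 0 of the 75 respiratory genes, and 1 of the 35 sarcomere genes, which it called up. The table rests on other groups of the same 5 libraries, so its calls cannot be set against the labels as given.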

How the data were processed

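Counts per gene were deposited by the authors as raw whole numbers for 5 RNA libraries. Per the submitters' processing notes, tools included STAR 2.7, featureCounts and DESeq2 1.20, and GRCm38 and mm10 were among the builds, each with its role unstated. The authors' deposited comparison table gave log2 fold changes and p-values, used only where named. The fit used edgeR 4.0.16 (R 4.3.3): default expression filter, TMM scaling, robust quasi-likelihood, two-sided, Benjamini-Hochberg over 15240 genes, threshold 0.05. Symbols were located in RefSeq GRCm38.p6 for 13785 genes (90.5%). Differences between libraries used log2 CPM with a prior count of 2. Exon lengths were not used here, so levels were not compared between genes. DESeq2 1.42.0, limma 3.58.1, other scalings, filters and left-out libraries were the alternatives. The script was tested on simulated data. Figures were drawn with matplotlib. Genes named were Prdm16, the sex-linked list, the 15 higher and 15 lower of smallest p with at least 5 CPM in a genotype (pseudogenes and unnamed loci left out), the 25 taking most counts, the 10 of largest spread in each genotype at 20 CPM or more, and up to 4 per list, and the others were chosen after their values were seen. The members and lists were chosen with earlier results of these data known.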

Additional observations from a re-analysis of the deposited data

How the results depend on the processing

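Without WT replicate 3 and Prdm16 replicate 1, the libraries whose labels the authors' table goes against, edgeR called 93 genes in place of 0, with 956 in place of 378 at an unadjusted p under 0.05, 10351 in place of 2710 without overlap (fewer libraries are compared) and 34 in place of 18 sarcomere genes above WT. Without the filter on low counts these counts were 25, 1103 and 4536, and at a minimum of 10 CPM in 2 libraries 1797 did not overlap. Upper-quartile scaling called 1 gene and DESeq2 called 2 (Ndufs5 and Gm42793). Leaving out 1 library at a time gave 0 to 4 called genes (4 without Prdm16 replicate 1: Xist, Ddx3y, Eif2s3y and Uty), 69 to 865 at an unadjusted p under 0.05 (69 without Prdm16 replicate 2, 865 without WT replicate 3), 4316 to 7879 without overlap and 18 to 34 sarcomere genes. The log2 fold change of Prdm16, 0.13, ranged between -0.21 (WT replicate 3 left out) and 0.44 (WT replicate 1 left out), was -0.14 when Prdm16 replicate 2 was left out, and was 0.00 without the 2 doubted libraries. With the replicate number as a block it was -0.23, with 1 called gene and 904 at an unadjusted p under 0.05. Deviations of same-numbered libraries correlated at 0.21 and -0.20. The deviations of the 2 Prdm16 libraries mirror each other by construction, so these values cannot decide on pairing. The labels do not say that replicate numbers pair libraries, so the numbers were not taken to pair them. The distance inside WT was 0.326 at the stricter filter and 0.382 to 0.419 for single pairs. The match to the authors' p was 5.64% of genes at a 5% tolerance and 100% with the other pair of libraries. The cause of these changes was not tested beyond what each setting leaves out. The 30 genes named by p kept their direction throughout, which was close to fixed because none of them overlapped between the groups. A version by transcript length was not run. Depth limits genes under 5 CPM, whose median SE was 0.62 or more.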

Other observations

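Cell cycle and replication genes were lower in 28 of 38 with a median log2 fold change of -0.11, but the library that stood apart was WT replicate 3, with a median deviation of 0.45 log2 units. Pcna, the sliding clamp of DNA replication, had 83.8 and 61.3 CPM in Prdm16, against 115, 69.8 and 143 CPM in WT, and the groups overlapped. The sign of the median turned without WT replicate 3. Genes of the unfolded protein response were higher in 22 of 26 with a median of 0.15, which was -0.05 without Prdm16 replicate 2. The median deviation was -0.10 in Prdm16 replicate 1 and 0.25 in Prdm16 replicate 2, against -0.10, -0.15 and 0.02 in the WT libraries. Pdia4, a chaperone of the endoplasmic reticulum, had 604 and 636 CPM in Prdm16, against 481, 450 and 551 CPM in WT, while Xbp1, a factor that drives this response, had 90.5 and 88.3 CPM in Prdm16, against 262, 82.1 and 177 CPM in WT. None of these genes had an edgeR adjusted p under 0.05.

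Neuronal genes were higher in 11 of 11 tested of 20 listed, with a median of 0.50, at levels mostly under 5 CPM. The median was positive under all alternatives run, which reuse the same 5 libraries. Of the 11, 3 lay above all WT libraries (27.3%, where the background was 8.83%). The 20 listed genes summed to 166 and 195 CPM in Prdm16, against 147, 71.4 and 217 CPM in WT, so the sums overlapped. Grik2, a subunit of kainate receptors, had 6.07 and 3.91 CPM in Prdm16, against 3.17, 1.58 and 2.15 CPM in WT. Il33, an alarmin of muscle stroma, had 788 and 646 CPM in Prdm16, against 516, 247 and 124 CPM in WT (log2 fold change 1.28, SE 0.57, edgeR adjusted p = 0.9996). Mmp3, a secreted matrix protease, had 354 and 802 CPM in Prdm16, against 267, 220 and 101 CPM in WT (log2 fold change 1.56, SE 0.50). Neither overlapped. Loxl1, a crosslinker of elastin, had 145 and 129 CPM in Prdm16, against 502, 139 and 306 CPM in WT. Spry2, a feedback inhibitor of ERK, had 120 and 58.8 CPM in Prdm16, against 427, 174 and 138 CPM in WT, while Dusp6, of the same feedback, was higher in Prdm16.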
